A study of Homo sapiens with 4 samples.

Results

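Genes of the G2 phase, of entry into mitosis and of the mitotic spindle were compared in ARP-1. This established human cell line comes from multiple myeloma, a cancer of antibody-secreting plasma cells. The rule that lists the 53 symbols goes by known function and uses no measured value, though the list was drawn up with earlier results of these data known. Of these, 51 were found by Ensembl gene ID among the 15201 genes of the expression table, and KIFC1 and SPC25 are not analysed here. The groups were ARP-1 cells resistant to carfilzomib (CfzR, 2 libraries), an inhibitor of the proteasome, and wild-type ARP-1 cells (WT, 2 libraries). All 4 libraries come from the same line. The labels used here state no drug dose, length of exposure or presence of drug at harvest, and do not say whether the resistant cells are 1 clone. The values are FPKM, which divide each gene's fragments by its transcript length and by the size of the library, so levels of different genes can be set side by side.

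Entry into mitosis is driven by the kinase CDK1 bound to A- and B-type cyclins. WEE1 holds CDK1 inactive and the CDC25 phosphatases release it, after which polo-like and Aurora kinases build the spindle. At the kinetochore, the protein plate that ties a chromosome to microtubules, a checkpoint blocks the ubiquitin ligase APC/C until every chromosome is attached. The APC/C then marks securin and the cyclins for destruction by the proteasome, the enzyme that carfilzomib inhibits. In dividing cells most of these genes are transcribed together late in the cycle, under FOXM1, MYBL2 and the MuvB complex. MuvB binds a short promoter element called the cell cycle genes homology region.

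All 10 plasma cell markers had values, with summed FPKM of 6152 to 6722 in CfzR and 5916 to 5990 in WT. JCHAIN was the largest part, at 4601 and 3838 FPKM in CfzR and 3613 and 3493 FPKM in WT. Single markers went both ways. JCHAIN, SDC1, PRDM1 and SLAMF7 lay higher in CfzR without overlap, TNFRSF17 and XBP1 lower, and the others overlapped. SLAMF7 stood at 22.1 and 18.7 FPKM in CfzR and 0.282 and 0.198 FPKM in WT. Of markers of other cell types, 1 of 8 for T or NK cells, 1 of 8 for monocytes or macrophages, 1 of 6 for stroma, 0 of 5 for erythroid cells and 2 of 5 for epithelium had values. The largest of these was TRAC, a T cell receptor gene, at 29.4 and 27.4 FPKM in CfzR and 15.9 and 9.90 FPKM in WT. Its part in any difference below was not tested. Monocyte or macrophage and stromal markers summed to at most 6.01 FPKM in CfzR and 4.01 FPKM in WT. The epithelial sums were at most 3.70 FPKM in CfzR and 6.79 FPKM in WT. The sum of FPKM over all genes was 673265 and 877849 in CfzR replicates 1 and 2 and 918617 and 955284 in WT replicates 1 and 2, so CfzR replicate 1 stood apart from the other 3, and the part of this in the results was not tested.

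No gene of the mitotic programme passed the test between resistant and wild-type cells, a count close to the background share. None of the 51 genes passed an adjusted p of 0.05 by limma, where 0.350% of the 13411 genes tested passed (0.246% higher in CfzR and 0.104% lower), and the smallest adjusted p was 0.485, for the checkpoint kinase BUB1. Nor did any of the 51 have an unadjusted limma p under 0.05, against 11.1% of all genes tested. Log2 fold changes, CfzR over WT on the log2(FPKM + 1) scale, ran from -0.52 for CENPE to 0.56 for INCENP. Their median size, sign aside, was 0.22, against 0.24 over all genes tested and 0.23 over those whose mean reached 5 FPKM. The summed level of the 51 genes was 2997 and 3172 FPKM in CfzR and 3000.2 and 3069 FPKM in WT, so the groups overlapped in the sum. Their median level did not overlap, at 44.6 and 40.2 FPKM in CfzR and 38.6 and 37.9 FPKM in WT. Over all genes tested the medians were 10.22 and 10.20 FPKM in CfzR and 10.00 and 10.28 FPKM in WT. In bulk RNA of this kind, a different share of cells in G2 or mitosis and a different amount of each transcript per cell cannot be told apart.

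The data bound most of these differences, as far as the spread between libraries goes, which may be technical. For 47 of the 51 genes the 95% interval of the limma log2 fold change lay within 1 of 0, that is, within 2-fold either way. Such intervals were found for 70.0% of all genes tested, and for 74.7% of the 9014 genes whose mean reached 5 FPKM, a level that all 51 reached. The exceptions were PLK4, with an interval of -0.06 to 1.01, CENPE (-1.18 to 0.14), KNL1 (-0.36 to 1.20) and INCENP (-0.10 to 1.22). A gene within these limits may still differ by less than its interval allows.

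**Figure D1:**
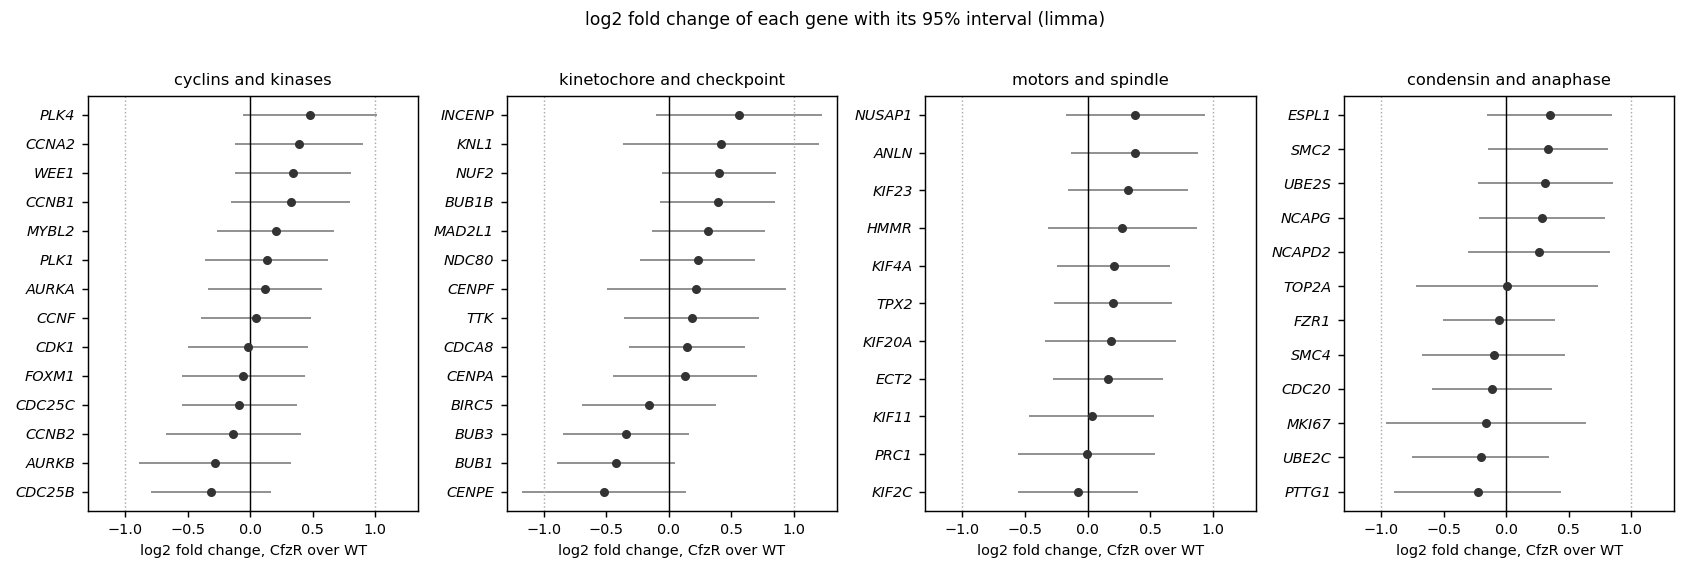
Log2 fold change of each of the 51 genes, CfzR over WT on the log2(FPKM + 1) scale, in 4 functional groups; points are limma estimates, bars their 95% intervals, and dotted lines mark a change of 1 in either direction. Every bar crosses 0, and only the bars of PLK4, CENPE, KNL1 and INCENP pass a dotted line.

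Small differences lay more often above 0 than below. Of the 51 genes, 33 had positive and 18 negative log2 fold changes, against 47.1% positive among all genes tested and 42.0% among those whose mean reached 5 FPKM; the split was 44 and 7 under quantile normalization, and 34 and 17 under scaling by trimmed means (TMM). The median log2 fold change was 0.16, against -0.02 over all genes tested. Both CfzR libraries lay above both WT libraries for 22 genes (43.1%, against 22.1% of all genes tested) and below them for 7 (13.7%, against 22.6%). Among genes whose mean reached 5 FPKM the shares were 18.7% above and 25.5% below. These shares describe the libraries, and no test of the list as a whole was made.

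The size of these differences varied with the library left out, while the split by sign stayed at 33 or 34 positive of 51 in each case. CfzR replicate 1 was the highest of the 4 libraries for 29 of the 51 genes (56.9%, against 31.4% of all genes tested), CfzR replicate 2 for 5, WT replicate 1 for 4 and WT replicate 2 for 13. Without CfzR replicate 1 the median log2 fold change of the 51 genes was 0.07, and 25 genes lay above both WT libraries (49.0%, against 36.6% of all genes) and 12 below (23.5%, against 35.2%). Without CfzR replicate 2 the median was 0.26, with 31 genes above (60.8%, against 38.5%) and 16 below (31.4%, against 45.4%); 14 of the 51 then had an unadjusted limma p under 0.05, but the smallest adjusted p was 0.0950. Without WT replicate 1, 29 genes lay above (56.9%, against 32.1%) and 15 below (29.4%, against 38.7%), with a median of 0.19. Without WT replicate 2 the counts were 23 above (45.1%, against 31.8%) and 9 below (17.6%, against 31.0%), and the median was 0.11.

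**Figure D2:**
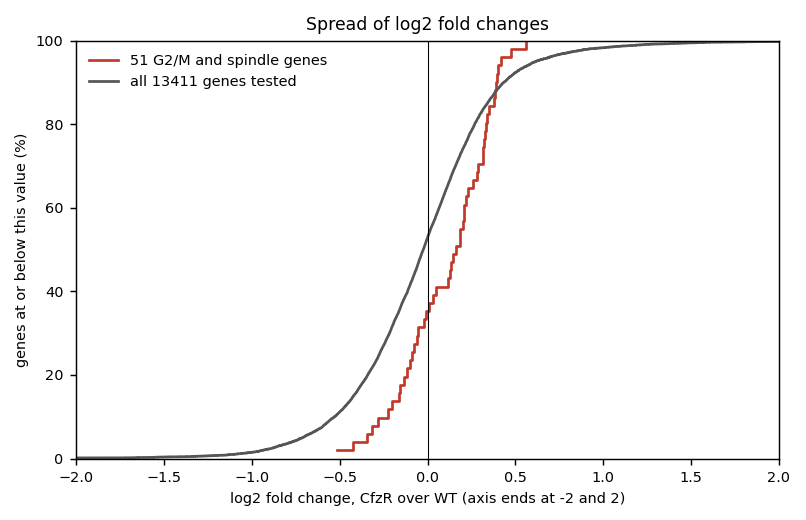
Cumulative share (percent) of genes at or below each log2 fold change, CfzR over WT, for the 51 G2/M and spindle genes and for all 13411 genes tested; the axis ends at -2 and 2, so the genes beyond are not drawn. The curve of the 51 genes lies to the right over most of its length, with a median of 0.16 against -0.02, and spans only -0.52 to 0.56.

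The promoters of these genes share elements that were not used to choose them. RefSeq windows (GRCh38.p14) from 250 bases before to 50 bases after a transcript start were matched by symbol for 44 of the 53 listed genes, with 59 windows in all, since some genes have several starts. The letters TTTGAA of the cell cycle genes homology region, on either strand, were found in 36 of the 59 windows (61.0%), against 15.2% of all 35116 windows. The letters CCAAT, the CCAAT box bound by NF-Y, occurred on either strand in 38 windows (64.4%), against 34.6% of all. The letters TTTCCCGC, an E2F-type site, were in 1 window (1.69%), against 1.63% of all. None of these 3 strings contains another, and a match is a description of the sequence only. The 31 measured genes with TTTGAA in at least 1 window had a median log2 fold change of 0.21, with 23 positive, and the 11 without it had a median of -0.08, with 5 positive. In the split by CCAAT the medians ran the other way, at 0.14 for the 31 genes that hold it and 0.23 for the 11 that do not. Of the 31 genes 21 were positive, and of the 11 genes 7, so the shares of positive genes were similar. No test was made of either split.

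The 120 bases before the start are printed for 6 genes, chosen because they include partners of the same complex that lay on opposite sides of 0 (INCENP and AURKB, BUB1B and BUB1) and the textbook late-cycle genes CCNB2 and PLK1. Capitals mark TTTGAA and CCAAT, with ATTGG where CCAAT lies on the opposite strand. The windows are INCENP at chr11:62123891-62124010 (plus strand), AURKB at chr17:8210226-8210345 (minus, the first of its 2 windows), BUB1B at chr15:40160949-40161068 (plus), BUB1 at chr2:110678064-110678183 (minus), CCNB2 at chr15:59105026-59105145 (plus) and PLK1 at chr16:23678769-23678888 (plus).
INCENP: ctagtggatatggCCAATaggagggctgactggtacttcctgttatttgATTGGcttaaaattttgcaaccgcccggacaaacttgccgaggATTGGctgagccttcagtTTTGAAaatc
AURKB: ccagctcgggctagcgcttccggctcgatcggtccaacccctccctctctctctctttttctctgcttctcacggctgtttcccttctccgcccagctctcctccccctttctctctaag
BUB1B: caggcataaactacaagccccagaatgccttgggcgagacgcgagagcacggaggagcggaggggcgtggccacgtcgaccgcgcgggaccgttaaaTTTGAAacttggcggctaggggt
BUB1: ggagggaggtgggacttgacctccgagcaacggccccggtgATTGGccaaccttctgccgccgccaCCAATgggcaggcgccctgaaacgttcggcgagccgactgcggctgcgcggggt
CCNB2: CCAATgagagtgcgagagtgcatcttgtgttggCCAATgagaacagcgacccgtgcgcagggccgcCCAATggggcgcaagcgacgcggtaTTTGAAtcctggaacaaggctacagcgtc
PLK1: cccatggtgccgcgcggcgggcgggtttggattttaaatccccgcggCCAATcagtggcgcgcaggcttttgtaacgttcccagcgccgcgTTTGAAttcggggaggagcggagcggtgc

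In PLK1 and CCNB2 the TTTGAA match began 29 bases before the start, in BUB1B 23 and in INCENP 10. Upstream of that element, the printed stretch of CCNB2 holds 3 CCAAT matches and that of PLK1 holds 1. The stretches of AURKB and BUB1 hold no TTTGAA, and that of AURKB no CCAAT either. The AURKB stretch lies inside the GENCODE 29 span of its gene (chr17:8204733-8210600), as does that of PLK1 (chr16:23677656-23690367). The other AURKB window is not printed, so this does not show that AURKB lacks either element.

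Cyclins, kinases and transcription factors of mitotic entry were divided by sign, but those without overlap lay mostly above WT. Of the 14, all with values, 8 lay above and 6 below 0, the median log2 fold change being 0.08, or 0.20 under quantile normalization. CfzR lay above WT without overlap for 7 (50%, against 22.1% of all genes tested) and below for 2 (14.3%, against 22.6%). CDK1, the master kinase of mitosis, stood at 60.2 and 61.4 FPKM in CfzR and 55.9 and 67.9 FPKM in WT, and the CfzR pair lay between the WT pair. Its log2 fold change was -0.02 (SE 0.20, limma adjusted p = 0.979), with an interval of -0.50 to 0.46. Its partner CCNB1, cyclin B1, stood at 99.8 and 92.5 FPKM in CfzR and 79.9 and 73.5 FPKM in WT, so both CfzR libraries were higher, by a log2 fold change of 0.32 (SE 0.20, limma adjusted p = 0.564).

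CCNA2, cyclin A2, which acts from S phase into early mitosis, stood at 79.3 and 61.8 FPKM in CfzR and 55.7 and 50.7 FPKM in WT (log2 fold change 0.39). The groups did not overlap, though the gap between the CfzR libraries was as wide as the step to WT. CCNB2, cyclin B2, overlapped, at 80.5 and 101 FPKM in CfzR and 90.0 and 109 FPKM in WT (log2 fold change -0.13). CCNF and CDC25C, an atypical cyclin of a ubiquitin ligase and a CDK1 phosphatase, had log2 fold changes of 0.05 and -0.09.

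WEE1 and CDC25B, which act on CDK1 in opposite ways, lay on opposite sides, but other regulators of CDK1 did not repeat this. WEE1, the inhibitory kinase, stood at 26.3 and 21.9 FPKM in CfzR and 19.3 and 18.2 FPKM in WT (log2 fold change 0.34, SE 0.20, limma adjusted p = 0.544). CDC25B, the phosphatase that starts CDK1 activation at the centrosome, stood at 74.7 and 63.3 FPKM in CfzR and 84.4 and 87.0 FPKM in WT (log2 fold change -0.31, SE 0.20, limma adjusted p = 0.577). For each of the 2 genes the groups did not overlap, and neither passed the threshold. Once transcript length and GC share were corrected for, the log2 fold changes were 0.12 for WEE1 and -0.24 for CDC25B. Under quantile normalization they were 0.40 for WEE1 and -0.13 for CDC25B. Of the other CDC25 phosphatases, CDC25A lay higher without overlap (log2 fold change 0.31) and CDC25C lower without overlap (-0.09). PKMYT1, also an inhibitory kinase of CDK1, had a log2 fold change of -0.44, with overlap.

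PLK4, the kinase that licenses centriole duplication, had the highest log2 fold change of this group, 0.48 (SE 0.23, limma adjusted p = 0.491). It stood at 22.1 and 15.5 FPKM in CfzR and 13.6 and 12.4 FPKM in WT, with CfzR replicate 1 well above the rest. PLK1, the main polo-like kinase of mitosis, stood at 125 and 115 FPKM in CfzR and 115 and 105 FPKM in WT (log2 fold change 0.13), barely without overlap. AURKA, the centrosomal Aurora kinase, stood at 61.5 and 60.7 FPKM in CfzR and 53.8 and 59.0 FPKM in WT (log2 fold change 0.12).

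AURKB, the Aurora kinase of the chromosomal passenger complex, stood at 137 and 196 FPKM in CfzR and 194 and 206 FPKM in WT (log2 fold change -0.28, SE 0.26, limma adjusted p = 0.680). CfzR replicate 1 alone was low, and CfzR replicate 2 lay between the WT libraries. Of the transcription factors, FOXM1 stood at 62.1 and 53.6 FPKM in CfzR and 65.4 and 54.8 FPKM in WT (log2 fold change -0.05), with overlap. MYBL2, which joins MuvB to activate late-cycle genes, stood at 70.7 and 68.5 FPKM in CfzR and 64.3 and 56.3 FPKM in WT (log2 fold change 0.21), without overlap.

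**Figure D3:**
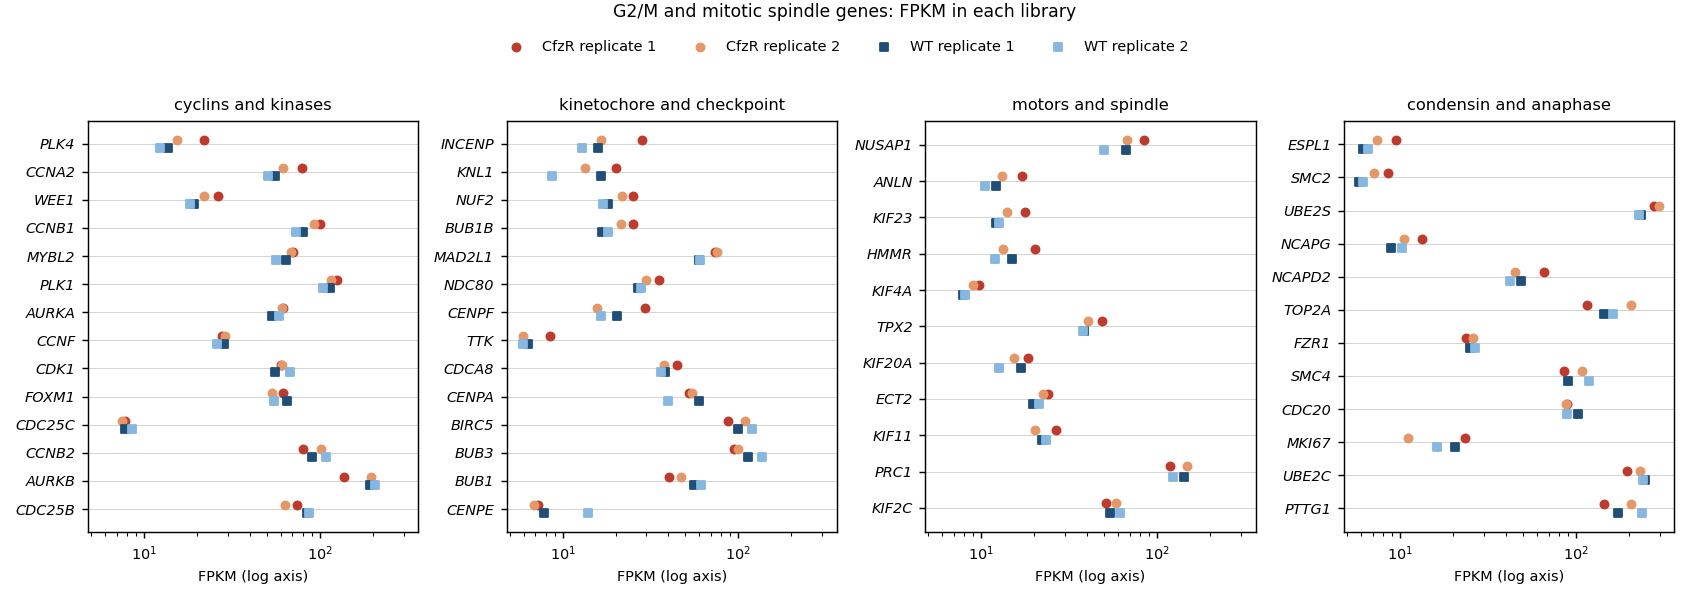
FPKM (log axis) of the 51 genes in each library, in 4 functional groups ordered by log2 fold change; circles are CfzR replicates, drawn above the squares of the WT replicates. Most genes differ little between groups: CDK1 lies at 60.2 and 61.4 FPKM in CfzR and at 55.9 and 67.9 FPKM in WT, while the largest gaps often come from CfzR replicate 1, as for INCENP at 28.2 FPKM.

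Kinetochore and checkpoint genes spread the most. Of 14 with values, 10 were positive and 4 negative, with a median log2 fold change of 0.20, and without CfzR replicate 1 the median was 0.07. Without WT replicate 2 it was 0.09, and without CfzR replicate 2 it was 0.32. Both CfzR libraries were above WT for 5 (35.7%, against 22.1% of all genes tested) and below for 3 (21.4%, close to the 22.6% of all genes). The median size of the log2 fold change, sign aside, was 0.33, against 0.24 over all genes tested.

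INCENP (ENSG00000149503), the scaffold of the chromosomal passenger complex, lies at chr11:62123973-62153163 on the plus strand of GRCh38 (GENCODE 29). It stood at 28.2 and 16.5 FPKM in CfzR and 15.9 and 12.9 FPKM in WT, a mean of 22.3 ± 8.27 against 14.4 ± 2.14 (SD, n = 2 each). Its log2 fold change was 0.56 (SE 0.28, limma adjusted p = 0.503). Without CfzR replicate 1 it was 0.19, since CfzR replicate 2 lay just above WT replicate 1. The other subunits did not follow it: BIRC5, survivin, stood at 87.8 and 109 FPKM in CfzR and 99.7 and 120 FPKM in WT (log2 fold change -0.16), and CDCA8, borealin, overlapped at 44.6 and 37.9 FPKM in CfzR and 38.1 and 36.1 FPKM in WT.

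CENPE (ENSG00000138778), a motor that carries chromosomes to the spindle equator, lies at chr4:103105806-103198409 on the minus strand. It stood at 7.22 and 6.86 FPKM in CfzR and 7.85 and 13.97 FPKM in WT. Both CfzR libraries were lower, but WT replicate 2 was far above the other 3. Its log2 fold change was -0.52 (SE 0.28, limma adjusted p = 0.526) and only -0.14 without WT replicate 2.

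BUB1 (ENSG00000169679; chr2:110637698-110678114, minus strand), the kinase that recruits checkpoint proteins to kinetochores, was lower in both CfzR libraries, at 40.4 and 46.9 FPKM, against 56.2 and 61.3 FPKM in WT. Its log2 fold change was -0.42 (SE 0.20, limma adjusted p = 0.485), between -0.53 and -0.32 when any 1 library was left out. BUB3, the adaptor of BUB1 and BUB1B, stood at 94.997 and 99.6 FPKM in CfzR and 113 and 135 FPKM in WT (log2 fold change -0.34), also without overlap.

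The inhibitor of the APC/C is made of BUB1B, MAD2L1, BUB3 and CDC20, and its parts lay on both sides of 0. BUB1B, the BUBR1 protein that binds and blocks CDC20, stood at 25.2 and 21.4 FPKM in CfzR and 16.8 and 18.1 FPKM in WT (log2 fold change 0.39, SE 0.19, limma adjusted p = 0.502). MAD2L1, which binds CDC20 in the same complex, stood at 73.4 and 75.8 FPKM in CfzR and 59.4 and 60.2 FPKM in WT. Its replicates were close together, and the log2 fold change of 0.31 (SE 0.19, limma adjusted p = 0.559) moved only between 0.29 and 0.34 when any 1 library was left out. It moved more with the processing, to 0.12 once transcript length and GC share were corrected for and to 0.48 under quantile normalization. TTK, a kinase that starts checkpoint signalling, had the lowest mean level of the 51 genes, at 8.45 and 5.95 FPKM in CfzR and 6.34 and 5.95 FPKM in WT.

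Among the microtubule-binding parts, NUF2, a subunit of the NDC80 complex, stood at 25.2 and 21.7 FPKM in CfzR and 18.0 and 17.0 FPKM in WT (log2 fold change 0.40, SE 0.19, limma adjusted p = 0.493), without overlap. Its partner NDC80 also lay higher without overlap, at 35.2 and 29.7 FPKM in CfzR and 26.9 and 27.9 FPKM in WT. KNL1, the platform for BUB proteins, had a log2 fold change of 0.42 but wide replicates, at 20.1 and 13.4 FPKM in CfzR and 16.6 and 8.69 FPKM in WT, and it was -0.01 without WT replicate 2. CENPA, the centromeric histone, and CENPF, a large kinetochore protein, overlapped.

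Motors and spindle genes leaned upward with small steps. Of 11 with values, 9 were positive and 2 negative, with a median of 0.20, which moved to 0.11 when CfzR replicate 1 was left out and to 0.31 when CfzR replicate 2 was. Without overlap, CfzR was above WT for 6 (54.5%, against 22.1% of all genes tested) and below for 0 (against 22.6%). NUSAP1, which bundles spindle microtubules, had the highest log2 fold change, 0.38 (SE 0.23, limma adjusted p = 0.563), with 84.6 and 67.6 FPKM in CfzR and 66.6 and 50.2 FPKM in WT. CfzR replicate 2 and WT replicate 1 differed there by little more than 1 FPKM.

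ANLN, anillin of the cleavage furrow, stood at 17.2 and 13.2 FPKM in CfzR and 12.2 and 10.6 FPKM in WT (log2 fold change 0.38, SE 0.21, limma adjusted p = 0.541). KIF23, the motor of the central spindle, stood at 17.7 and 13.99 FPKM in CfzR and 12.1 and 12.7 FPKM in WT (log2 fold change 0.32). Both genes serve the last step, the splitting of the cell, and their groups did not overlap. PRC1, which crosslinks the same midzone, differed by almost nothing, at 118 and 149 FPKM in CfzR and 143 and 123 FPKM in WT (log2 fold change -0.01).

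KIF11, the motor that pushes the spindle poles apart, stood at 26.7 and 20.3 FPKM in CfzR and 22.2 and 23.3 FPKM in WT (log2 fold change 0.03), and the WT libraries lay between the CfzR libraries. KIF2C, a microtubule depolymerase, stood at 51.4 and 58.7 FPKM in CfzR and 54.2 and 61.9 FPKM in WT (log2 fold change -0.08). The other 5, the motors KIF4A and KIF20A, the microtubule-binding TPX2 and HMMR, and the cytokinesis factor ECT2, had log2 fold changes of 0.16 (ECT2) to 0.28 (HMMR).

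Condensin and anaphase genes divided evenly. All 12 had values: 6 were positive and 6 negative, with a median of -0.03, which was 0.14 under quantile normalization and 0.02 once transcript length and GC share were corrected for. The groups did not overlap for 4 above WT (33.3%, against 22.1% of all genes tested) and 2 below (16.7%, against 22.6%). UBE2S and UBE2C, the ubiquitin-conjugating enzymes that extend and start chains on APC/C substrates, were the most abundant of the 51 transcripts and lay on opposite sides. UBE2S stood at 278 and 299 FPKM in CfzR and 236 and 228 FPKM in WT (log2 fold change 0.31, SE 0.23, limma adjusted p = 0.617). UBE2C stood at 196 and 231 FPKM in CfzR and 249 and 242 FPKM in WT (log2 fold change -0.20, SE 0.23, limma adjusted p = 0.740, and 0.08 under quantile normalization).

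CDC20, the APC/C activator that the checkpoint restrains, stood at 88.6 and 87.9 FPKM in CfzR and 103 and 89.2 FPKM in WT (log2 fold change -0.11, and 0.05 under quantile normalization). The CfzR pair was close together and lay just under the lower WT library. PTTG1, securin, stood at 145 and 207 FPKM in CfzR and 173 and 237 FPKM in WT (log2 fold change -0.23), with overlap. ESPL1, separase, which securin holds inactive, stood at 9.48 and 7.39 FPKM in CfzR and 6.17 and 6.58 FPKM in WT (log2 fold change 0.35, SE 0.21, limma adjusted p = 0.559), without overlap.

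SMC2, a core ATPase of condensin, stood at 8.50 and 7.16 FPKM in CfzR and 5.86 and 6.14 FPKM in WT (log2 fold change 0.33), without overlap, while its partner SMC4 overlapped at 85.3 and 109 FPKM in CfzR and 90.2 and 118 FPKM in WT. The condensin subunits NCAPG and NCAPD2 had log2 fold changes of 0.28 and 0.26, and FZR1, the late activator of the APC/C, -0.06. MKI67 and TOP2A, used as markers of proliferation, overlapped between the groups. MKI67, which encodes the Ki-67 antigen, stood at 23.4 and 11.2 FPKM in CfzR and 20.6 and 16.2 FPKM in WT (log2 fold change -0.16), and the CfzR libraries held its highest and lowest values. TOP2A, the topoisomerase that untangles sister chromatids, stood at 116 and 206 FPKM in CfzR and 144 and 164 FPKM in WT (log2 fold change 0.01, SE 0.31), and again the CfzR libraries held both extremes, but in the other order.

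Ratios between partners compare 2 genes within a library, so they do not depend on the scaling of libraries. They were not corrected for transcript length or GC share. Of 18 pairs computed, 13 lay higher in CfzR without overlap, 0 lower, and 5 overlapped. Which gene of a pair was set over the other was a choice, and swapping them turns higher into lower. The direction of this count therefore carries no meaning. No share over other gene pairs was computed. Where a gene higher without overlap was set over a partner lower without overlap, the ratio had to lie higher. That holds for WEE1 to CDC25B and to CDC25C, BUB1B to BUB1 and to BUB3, UBE2S to UBE2C and MAD2L1 to CDC20. The pairs below were chosen after their values were seen. A two-sided exact permutation test of 2 libraries against 2 cannot go below p = 0.333, so no test is given. The ratio of WEE1 to CDC25B was 0.352 and 0.346 in CfzR and 0.228 and 0.210 in WT, with replicates far closer to each other than to the other group. That of BUB1B to BUB1 was 0.624 and 0.456 in CfzR and 0.299 and 0.295 in WT. The ratio of UBE2S to UBE2C was 1.42 and 1.29 in CfzR and 0.948 and 0.941 in WT.

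The ratio of MAD2L1 to CDC20 was 0.828 and 0.862 in CfzR and 0.579 and 0.674 in WT. That of CCNB1 to CCNB2 was 1.24 and 0.914 in CfzR and 0.888 and 0.674 in WT, so that CfzR replicate 2 and WT replicate 1 nearly met. INCENP to AURKB stood at 0.206 and 0.0839 in CfzR and 0.0820 and 0.0624 in WT, and only CfzR replicate 1 lay apart. The 2 activators of the APC/C kept overlapping ratios, with CDC20 to FZR1 at 3.74 and 3.38 in CfzR and 4.11 and 3.32 in WT.

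**Figure D4:**
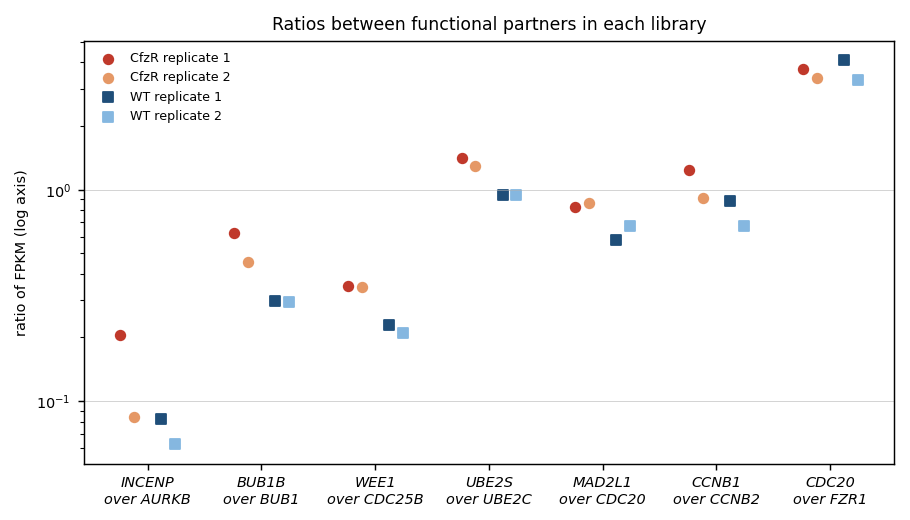
Ratio of FPKM between functional partners (log axis) in each library, with circles for CfzR and squares for WT. WEE1 over CDC25B lies at 0.352 and 0.346 in CfzR and 0.228 and 0.210 in WT, whereas CDC20 over FZR1 overlaps.

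Gaps between replicates were about as large as those between groups in CfzR and smaller in WT. The former are between single libraries and the latter between means of 2 libraries, so the sizes are not on a like footing. Across the 51 genes the median size of the difference between CfzR replicates was 0.24 on the log2(FPKM + 1) scale, between WT replicates 0.13, and between the group means 0.22. Over all genes tested these medians were 0.32, 0.18 and 0.24, so the replicates of the 51 genes lay closer together than those of most genes. For 33 genes at least 1 of the gaps between replicates was larger than the difference between groups, and for 18 neither was. No share over all genes was computed for this count, so it is not read as a trait of the 51. The gap between CfzR replicates was related to transcript length: Spearman's rho with the longest GENCODE 29 transcript was 0.354 over the 51 genes, against 0.023 for the WT pair, and 0.466 and 0.146 over the 12896 genes tested that have a length. These are descriptions across genes that share 4 libraries. MKI67 and CENPF, the longest transcripts at 12678 and 10307 bases, were higher in CfzR replicate 1 than in replicate 2 by 1.01 and 0.85, and PTTG1, at 1070 bases, was lower by a difference of -0.51.

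With the correction for length and GC share, the median log2 fold change of the 51 genes was 0.09, and CfzR lay above WT without overlap for 19 (37.3%, against 21.8% of genes) and below for 6 (11.8%, against 24.7%). CENPE then had the lowest log2 fold change, -0.82, and INCENP the highest, 0.63, and 0 passed by limma, with 2 at an unadjusted p under 0.05. Levels kept their order across groups: Spearman's rho of mean log2 levels between CfzR and WT was 0.98 over the 51 genes, and 0.969 over all genes tested. Pearson's r was 0.986 and 0.976.

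**Figure D5:**
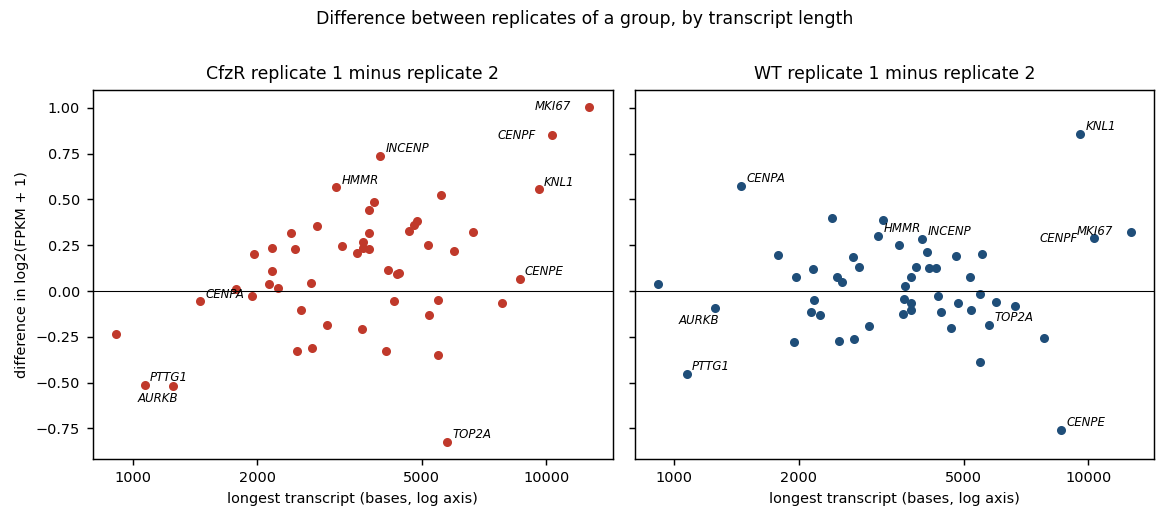
Difference between the 2 replicates of a group in log2(FPKM + 1), for CfzR on the left and WT on the right, against the length of the longest transcript (bases, log axis) of the 51 genes. In CfzR the longest transcripts, MKI67 and CENPF, lie at 1.01 and 0.85 and the short PTTG1 at -0.51, and TOP2A lies low at -0.82.

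Other genes of the same machinery were taken from 11 lists of known function with 198 genes, of which 187 were tested. None of the 187 passed an adjusted p of 0.05 by limma, where 0.350% of all genes tested passed, and 11 (5.88%) had an unadjusted p under 0.05, against 11.1% of all genes. The share of all genes tested without overlap, 22.1% above WT and 22.6% below, is the background for each count that follows. Of 15 cohesin genes and regulators, 12 were positive, with a median of 0.28; 7 lay above WT without overlap (46.7%) and 1 below (6.67%). STAG1, a cohesin subunit, stood at 7.43 and 5.33 FPKM in CfzR and 3.85 and 4.25 FPKM in WT (log2 fold change 0.53, SE 0.23, limma adjusted p = 0.454), and CDCA5, sororin, had the lowest value of that list, -0.12. Of 15 APC/C subunits and inhibitors, 5 were positive and 10 negative, with a median of -0.12. Among them ANAPC1, the largest scaffold subunit, was lower at 5.81 and 7.56 FPKM in CfzR and 10.0 and 12.9 FPKM in WT (log2 fold change -0.70, limma adjusted p = 0.328), and ANAPC10 higher, at 17.0 and 17.3 FPKM in CfzR and 13.2 and 10.4 FPKM in WT (log2 fold change 0.52, limma adjusted p = 0.420).

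Of 32 other kinetochore and centromere genes, 20 were positive, with a median of 0.07, 8 above WT without overlap (25.0%, close to the 22.1% of all genes) and 4 below (12.5%). MAD2L1BP, which turns the checkpoint protein MAD2 off, was the lowest, at 19.5 and 23.4 FPKM in CfzR and 33.7 and 35.5 FPKM in WT (log2 fold change -0.67, SE 0.20, limma adjusted p = 0.283), and CENPI the highest at 0.42. Of 24 other motors and spindle genes, 15 were positive, with a median of 0.04, from CKAP2L (-0.58) to CKAP5 (0.52), with 9 above WT without overlap (37.5%, against 22.1% of all genes) and 1 below (4.17%, against 22.6%). The 4 other condensin subunits had a median of -0.05. NCAPH, the kleisin of condensin I, was lower without overlap, at 16.5 and 18.3 FPKM in CfzR and 26.0 and 23.4 FPKM in WT (log2 fold change -0.48, limma adjusted p = 0.420), and NCAPG2 of condensin II was the highest at 0.17.

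Of 15 other G2/M kinases and phosphatases, 10 were positive, with a median of 0.13, from PKMYT1 (-0.44) to ARPP19 (0.40). Of 15 centriole and centrosome genes, 12 were positive, with a median of 0.17, from CETN2 (-0.29) to NEDD1 (0.45). Of 9 tubulins, 7 were negative, with a median of -0.11, from TUBB2B (-0.60) to TUBA1A (0.24).

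Regulators of these genes lay mostly above 0 in 1 list and were divided in another. Of 14 DREAM and MuvB regulators, 10 were positive, with a median of 0.23, 6 above WT without overlap (42.9%, against 22.1% of all genes) and 0 below (against 22.6%). E2F7, a repressor of the E2F family, stood at 8.19 and 6.10 FPKM in CfzR and 3.50 and 3.26 FPKM in WT (log2 fold change 0.88, SE 0.22, limma adjusted p = 0.222), and E2F5 was the lowest at -0.15. Of 11 CDK inhibitors and p53 targets of G2 arrest, 5 were positive and 6 negative, with a median of -0.05. CCNG2, a cyclin of non-dividing cells, had 27.1 and 12.4 FPKM in CfzR and 10.1 and 10.2 FPKM in WT (log2 fold change 0.80, limma adjusted p = 0.453), and CDKN2A, an inhibitor of the G1 kinases, 419 and 642 FPKM in CfzR and 714 and 718 FPKM in WT (log2 fold change -0.46, limma adjusted p = 0.590).

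Genes of the preceding phases were described in the same way. Of 33 G1/S and replication genes, 19 were positive, with a median of 0.09, 14 above WT without overlap (42.4%, against 22.1% of all genes) and 3 below (9.09%, against 22.6%). PCNA, the replication clamp and a marker of proliferation, was among those above, at 144 and 164 FPKM in CfzR and 122 and 129 FPKM in WT (log2 fold change 0.30). CCNE2, cyclin E2, stood at 2.995 and 1.68 FPKM in CfzR and 0.597 and 0.656 FPKM in WT (log2 fold change 1.01, SE 0.29, limma adjusted p = 0.274), and GMNN, the replication inhibitor geminin, had the lowest value, -0.53. No test of the difference between these lists was made.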

How the data were processed

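The authors deposited 1 table of FPKM values, holding 15201 Ensembl gene IDs, with a column for each library. Per the submitters' processing notes the tools were STAR and Cufflinks, and FPKM was taken as the unit from Cufflinks and the range of the values. Their versions, the genome build, annotation and strandedness were not found in those notes. TRIzol was used for the RNA, and an mRNA kit for the libraries, per the labels' protocols. The columns of CfzR carry the drug's abbreviation, and the columns with a short name for a control were assigned to WT, the only other group. FPKM values hold no counts, so depth is unknown, and no interval for counting can be given. The lowest mean of a deposited row was 0.500 FPKM.

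Symbols were matched by ID for 15027 genes. Values were transformed to log2(FPKM + 1), 13411 genes whose mean reached 1 FPKM were kept, and CfzR was compared with WT in R 4.3.3 by limma 3.58.1 (eBayes with trend), two-sided, with Benjamini-Hochberg adjustment over all genes tested. The fold changes are on that scale, which understates changes of low genes. Nothing in the labels ties replicates to separate cultures: the p-values reflect library-to-library spread, which may be technical. The procedure was tested on simulated data.

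The genes and lists were chosen with earlier results of these data known. Per-library values are given for the 3 highest and 3 lowest log2 fold changes of each functional group and for 14 well-known genes, and the highest and lowest log2 fold change of each list are named. Which of the list genes are shown by library, and any other gene named, was chosen after values were seen. Transcript length and GC share come from the longest transcript of GENCODE 29, and the correction removes splines with 4 degrees of freedom of each from every library's deviations. Alternatives were pseudocounts of 0.1 and 5, no filter or a filter at 5 FPKM, TMM scaling, quantile normalization, no trend, the length and GC correction, a replicate block and leaving out each library. The counts of genes whose groups did not overlap were recomputed after seeing the data.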

Additional observations from a re-analysis of the deposited data

How the results depend on the processing

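None of the 51 genes passed in limma under any of the 14 alternatives to the fit. All genes called, 47 in the reported fit, were 27 with a filter at 5 FPKM, 1242 with a replicate block, 262 with the block and the length and GC correction together, and 16 to 260 with 1 library left out. The replicate numbers are not stated to pair libraries: the deviations of same-numbered libraries correlated at 0.252 across all genes tested and 0.521 across the 51. The block leaves 1 residual degree of freedom per gene, and with it the smallest adjusted p of the 51 was 0.0792. Under quantile normalization the median log2 fold change was 0.24 for the 51 genes, 0.20 for cyclins and kinases and 0.14 for condensin and anaphase genes, and without overlap 23 genes lay above WT (45.1%, against 23.0% of all genes) and 3 below (5.88%, against 21.0%). With the length and GC correction, with or without the block, it was 0.093 for the 51 and 0.017 for condensin and anaphase genes. With 1 library left out, medians ran from 0.074 to 0.26 for the 51, 0.07 to 0.09 for cyclins and kinases, 0.07 to 0.32 for kinetochore and checkpoint genes, 0.11 to 0.31 for motors and spindle genes and -0.0076 to 0.10 for condensin and anaphase genes, and genes without overlap numbered 23 to 31 above and 9 to 16 below WT, since fewer libraries overlap less often. Signs of small log2 fold changes turned. Under quantile normalization values were 0.018 for BIRC5, 0.044 for CCNB2, 0.051 for CDC20, 0.13 for CDK1, 0.088 for FOXM1, 0.067 for KIF2C, 0.18 for PRC1, 0.0065 for PTTG1 and 0.080 for UBE2C, and PRC1 was 0.0098 under TMM scaling. With the length and GC correction, with or without the block, they were 0.026 for CDC20, -0.18 for KIF11 and -0.19 for TOP2A. With 1 library left out they ran from -0.30 to 0.030 for CCNB2, -0.16 to 0.12 for CDK1, -0.18 to 0.071 for FOXM1, -0.16 to 0.23 for KIF11, -0.17 to 0.019 for KIF2C, -0.013 to 0.85 for KNL1, -0.66 to 0.34 for MKI67, -0.17 to 0.16 for PRC1, -0.48 to 0.029 for PTTG1 and -0.40 to 0.42 for TOP2A. The cause was not tested for any of these. A lone library in a group is assumed to vary like the other group.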
